A study of Mus musculus with 96 samples.

Results

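The hearts described here were those collected in the early subjective day, at ct 26 and ct 50, from mice in which the clock gene Bmal1 (listed as Arntl) could be deleted from cardiomyocytes. They are 16 of the 96 libraries of the series, chosen by the time in their titles: 8 from mice given tamoxifen and 8 from mice given vehicle, with 2 libraries of each sex letter at each of the 2 times. F and M in the titles are read here as female and male, and ct as hours of circadian time. Every animal, vehicle mice included, carries the genotype label iCSBmal1 KO, an inducible cardiomyocyte-specific knockout. The groups therefore differ in treatment and not in that label. No mice without the genotype were given tamoxifen, so its own effects and those of Bmal1 loss cannot be told apart. The other cell types of the ventricle are outside the deletion by that design. The sources used here do not give the driver of the recombinase, the ages, the tamoxifen schedule or whether a library is 1 animal. P-values therefore measure the spread between these libraries. The remaining 80 libraries, 16 at each of 5 other times of day in steps of 4 h, served as the comparison for the rest of the day, with a ct and the ct 24 h later taken as 1 time.

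BMAL1 pairs with CLOCK or NPAS2, binds E-box sequences and drives its own repressors, the PER and CRY proteins, which close the main loop of the clock. It also drives the nuclear receptors REV-ERBα (Nr1d1) and REV-ERBβ (Nr1d2), which repress Bmal1 in turn and compete with the ROR receptors for the same elements. In the mouse heart BMAL1 targets rise through the early day, when Bmal1 RNA itself is high, and the clock is known to time cardiac ion channels, metabolism and chaperones.

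The total was 12076425 to 20596194 counts per library, with tamoxifen and vehicle libraries spread over the same range, so a count of 0 would allow up to 0.248 CPM, counts scaled to a common library total, in the smallest library. Levels are CPM scaled by TMM over all 96 libraries, and changes are log2, tamoxifen minus vehicle, with standard errors (SE). Library Veh_M_ct26_8 (vehicle, M) stood apart: its TMM factor was 1.21 against 0.932 to 1.06 in the other 15, and its chi-square per gene against its partner was 99.6 against 4.56 to 17.7 in the other pairs. Cardiomyocyte markers summed to 37341 to 49314 CPM in tamoxifen and 27177 to 43742 in vehicle libraries, and the atrial marker Myl7 passed 20 CPM in 2 libraries (Tam_M_ct50_550 at 107 CPM and Veh_F_ct50_445 at 111.5 CPM). For none of 17 library measures, 14 cell-type and RNA-quality sums among them, did the difference between treatments pass an exact 2-sided permutation test of 8 against 8 (smallest p = 0.0547, adjusted 0.36). The numbers in the titles fall in separate ranges for tamoxifen, vehicle F and vehicle M libraries, and the labels do not say what they stand for. If they mark a batch, it and the treatment cannot be told apart.

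Arntl, the deleted gene, was lower in all 8 tamoxifen libraries. It stood at 25.3, 28.2 and 32.6 CPM (lowest, median and highest of 8) with tamoxifen and at 38.4, 41.7 and 55.4 CPM with vehicle. The lowest vehicle library lay above the highest tamoxifen library. The change was -0.62 ± 0.08, 1.53-fold lower, with an adjusted p of 0.000226 (edgeR quasi-likelihood with the sex letter as a block). The gene spans 113207465 to 113314126 on the plus strand of chromosome 7 (GRCm38). Counts per gene do not tell a recombined transcript from an intact one, and in whole ventricle fewer cells of a type and less RNA per cell cannot be told apart.

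Across the transcriptome, 639 of 15418 tested genes passed an adjusted p of 0.05 (4.14% of those tested). Of these, 278 rose (1.8%) and 361 fell (2.34%). Scaled by library size alone, 196 rose and 446 fell. The median size of a called change was 0.53 on the log2 scale, and 286 genes passed 1.5-fold, among them 21 that rose and 79 that fell past 2-fold. The 8 and 8 libraries did not overlap for 189 genes (1.23% of those tested; 0.889% with tamoxifen above and 0.337% with it below), 129 of them called. For 605 called genes the difference had 1 sign in all 4 pairings of sex and ct. The genes were called on the same 16 libraries, so this count is not a separate check. Analysed alone, ct 26 gave 2 called genes and ct 50 gave 82, while F alone gave 2088 and M alone 9, in fits of 8 libraries each. The ct 26 and M fits both hold Veh_M_ct26_8, without which the fit of both sexes and times called 1212 genes. Its part in the low counts was not tested. No gene passed the test of a difference between F and M by edgeR (1445, or 9.37%, at an unadjusted p under 0.05). DESeq2 called 1 gene there, Car3, an adipose and muscle carbonic anhydrase, which was named after its values were seen and ran from 0.166 to 37.4 CPM over the 16 libraries. No gene passed the test of ct 50 against ct 26 by edgeR or DESeq2 (459, or 2.98%, at an unadjusted p under 0.05 by edgeR).

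Within the clock the receptors that repress Bmal1 fell, and the cryptochromes rose. Of 10 listed clock repressors, 3 rose, 4 fell and 3 did not pass (70% called, against 4.14% of all tested genes). This list and those below were chosen with earlier results of these data known, so such shares are descriptions and not tests of a list. Nr1d1, encoding REV-ERBα, stood at 16.7, 26.2 and 32.2 CPM with tamoxifen and 43.8, 72.5 and 107 CPM with vehicle, without overlap. Its change of -1.59 ± 0.17 was 3.02-fold lower (adjusted p = 1.62e-05). The 2 highest vehicle libraries for this gene were both F. Nr1d1 (chromosome 11, 98767932 to 98775333, minus strand) shares 8.55% of its exonic bases with Thra, a thyroid hormone receptor gene on the other strand, and the use of strand in counting was not given in the sources used here. Thra rose by 0.27 ± 0.07, opposite to Nr1d1 (adjusted p = 0.0348).

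Nr1d2, encoding REV-ERBβ, ran from 23.1 to 48.7 CPM (median 39.7) with tamoxifen and from 84.0 to 153 CPM (median 103) with vehicle. The groups were apart in every library, and the change was -1.49 ± 0.12 (adjusted p = 1.82e-06). Ciart, a repressor of BMAL1-CLOCK, fell by 1.58 on the log2 scale (SE 0.19) from a low level, 1.33 to 3.32 CPM with vehicle against 0.419 to 1.28 with tamoxifen. Per3, a period gene less central to the rhythm than its paralogs, fell by 1.0 on the log2 scale (SE 0.21), at 5.13 to 11.6 CPM against 8.91 to 26.2 CPM, an overlap of the ranges.

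Cry1, the strongest of the PER and CRY repressors, rose in every tamoxifen library above every vehicle library. It stood at 35.1, 45.1 and 50.8 CPM with tamoxifen and 13.9, 18.3 and 25.7 CPM with vehicle, a change of 1.25 ± 0.11 (2.38-fold, adjusted p = 4.81e-06). Cry2 was also without overlap, at 39.1 to 53.6 CPM against 19.8 to 36.2 CPM, with a change of 0.64 ± 0.10. Per2, a core repressor near its daily low at this time, rose by 0.80 ± 0.20 (adjusted p = 0.0291), but its ranges overlapped, 5.10 to 13.2 CPM against 2.48 to 10.3 CPM. Its call was lost in 11 of 29 alternatives, among them library-size scaling, the fit without the sex block and M alone. Per1, Bhlhe40 and Bhlhe41 did not pass, at 0.22 ± 0.26, -0.16 ± 0.16 and 0.19 ± 0.12.

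**Figure D1:**
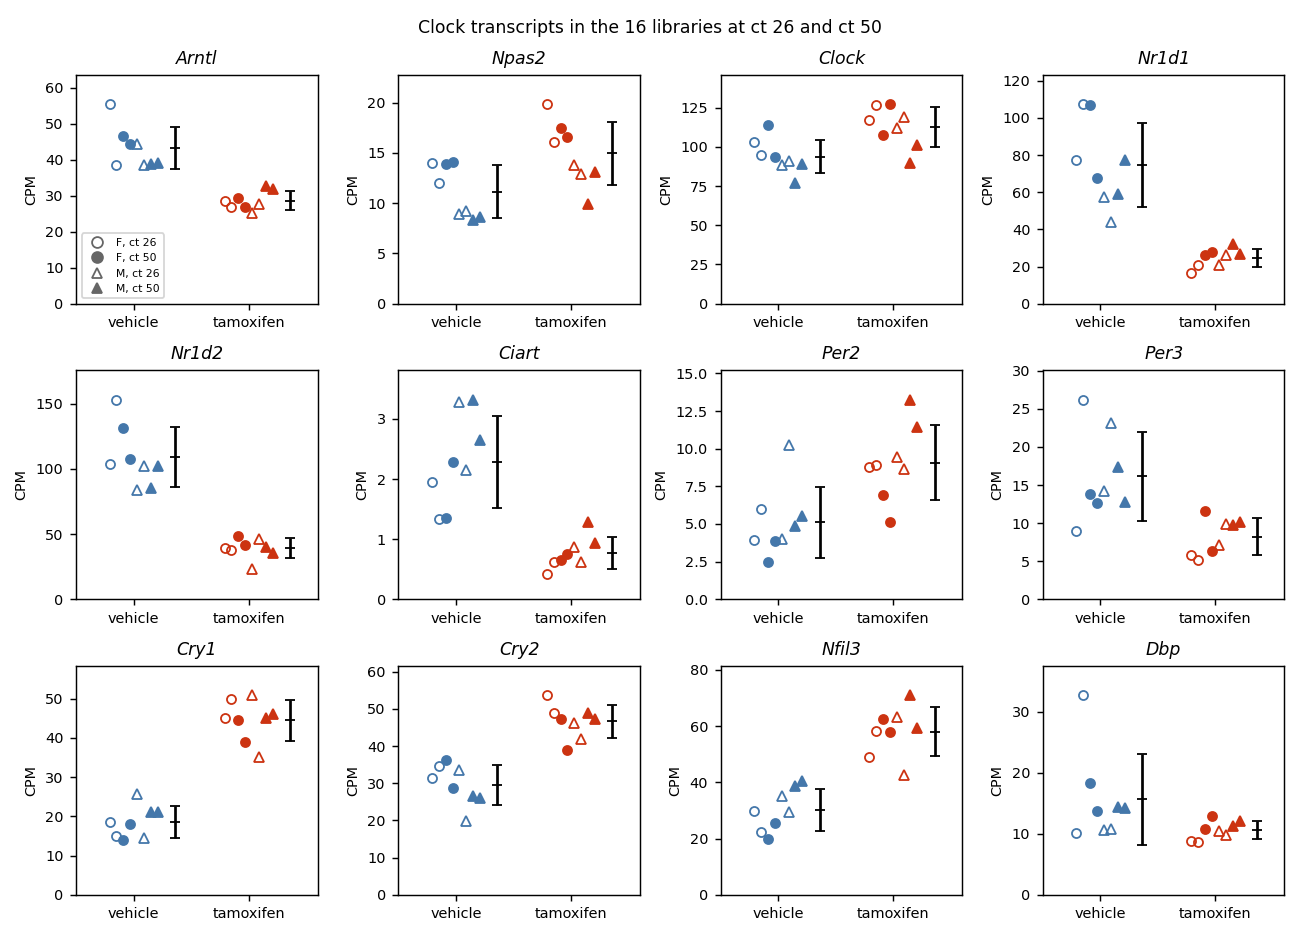
Level (CPM, linear axis from 0) of 12 clock transcripts in each of the 16 libraries at ct 26 (open) and ct 50 (filled), circles F and triangles M, vehicle in blue and tamoxifen in red; black bars are the mean and SD of 8. Arntl, Nr1d1, Nr1d2 and Ciart lie lower in all 8 tamoxifen libraries and Cry1, Cry2 and Nfil3 higher, while Npas2, Clock, Per2, Per3 and Dbp overlap.

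Among 6 activators and RORs, 2 rose and 1 fell (50%). Npas2, the alternative partner of BMAL1, rose by 0.41 ± 0.08 (adjusted p = 0.00687), with F libraries higher than M libraries under both treatments and overlapping ranges, 9.97 to 19.8 CPM against 8.37 to 14.1 CPM. Its call was lost under library-size scaling and without the sex block. Clock, Rora and Rorb did not pass (0.24 ± 0.07, -0.20 ± 0.08 and 0.68 ± 0.21). Of the 4 D-box factors, Nfil3, the D-box repressor E4BP4, rose by 0.95 ± 0.12 (42.5 to 70.9 CPM against 19.8 to 40.5 CPM, no overlap). The D-box activators Dbp, Tef and Hlf did not pass, at -0.56 ± 0.20, 0.01 ± 0.11 and 0.35 ± 0.13. Altogether 11 of these 20 clock genes passed the test, with changes in both directions among activators and repressors. None of the 8 tested clock kinases and ligases passed.

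The promoters of the 20 clock genes were looked up in RefSeq (GRCm38.p6) and searched for the letters of 3 clock elements, in the 250 bases before each start and on both strands. The E-box CACGTG was found in 5 of the 17 clock genes with an entry (29.4%), against 9.71% of the 10958 tested genes with one, 8.45% of the called genes that rose and 11.4% of those that fell. Per2 and Bhlhe40 were among the 3 without one. The letters AGGTCA, a core element bound by REV-ERB and ROR receptors, was in 4 of the 17 (23.5%, against 13% of tested genes), and the D-box TTATGTAA or TTACGTAA in 1 (5.88%, against 0.776%). Below are 4 stretches in which capitals mark these letters, shown as examples among called genes: Ciart (3 E-boxes, chr3:95882247-95882364, minus strand) and Per3 (2 D-boxes, chr4:151044796-151044890, minus) fell, Nr1d2 (1 AGGTCA, chr14:18239158-18239203, minus) fell, and Cry1 (1 E-box, chr10:85185089-85185134, minus) rose.
Ciart: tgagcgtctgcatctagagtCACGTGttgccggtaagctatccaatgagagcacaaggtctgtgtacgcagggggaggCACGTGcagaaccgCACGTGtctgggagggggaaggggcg
Cry1: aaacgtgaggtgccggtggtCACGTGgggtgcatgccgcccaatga
Nr1d2: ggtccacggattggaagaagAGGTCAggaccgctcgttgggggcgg
Per3: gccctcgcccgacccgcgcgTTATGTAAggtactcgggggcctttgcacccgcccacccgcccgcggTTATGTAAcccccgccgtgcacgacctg
Of the other genes with an E-box, Per1, Bhlhe41 and Tef did not pass in the early day, and of those with AGGTCA, Per1 and Clock did not pass and Nfil3 rose. A match is a description of the letters in this window only. Nr1d1 and Arntl held none of the 3 in theirs.

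Which of these changes belong to this time of day was asked by comparing the early-day change with the mean of the changes at the other 5 times, in a fit of all 96 libraries. Of 17107 tested genes, 3 passed (0.0175%): Nr1d1, Arntl and Atf4. At an unadjusted p under 0.05 there were 2051 genes (12%) in this edgeR test. Nr1d1 had a change of -1.57 ± 0.18 at the early day in this fit against -0.31 on average at the other times, a difference of -1.26 ± 0.20 (adjusted p = 0.00015). From ct 18/42 on, its changes were 0.00, -0.54, -1.57, -0.88, -0.12 and -0.03, so the deepest was at ct 26/50. Vehicle hearts were then on the rise, 20.3 ± 6.89 CPM (SD, n = 8) at ct 22/46, 74.7 ± 22.9 at ct 26/50 and 143 ± 28.9 at ct 30/54. Tamoxifen hearts stood at 13.9 ± 1.13, 24.7 ± 4.95 and 77.0 ± 15.9 CPM at the same times and reached 114 ± 29.8 at ct 34/58, where vehicle hearts had 123 ± 22.4. The call was kept in 27 of 28 alternatives and lost in M alone (-0.69, adjusted p = 0.714), while F alone gave -1.82.

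Arntl differed by -1.27 ± 0.25 (adjusted p = 0.0191), since its change turned sign over the day. It was 0.12, -0.51, -0.59 and -0.10 at ct 18/42 to 30/54, then 2.08 and 1.82 at ct 34/58 and 38/62. Vehicle hearts had their highest mean level at ct 26/50, 43.2 ± 5.90 CPM against 28.7 ± 2.56 with tamoxifen, and fell to 2.21 ± 1.62 CPM at ct 34/58 against 9.14 ± 4.23 with tamoxifen. This call was lost without Tam_F_ct26_518 (adjusted p = 0.0539), Tam_M_ct26_514 (0.0741) or Veh_M_ct26_7 (0.0527) and in either sex alone. Atf4, a transcription factor of the integrated stress response, was named after its values were seen: its early-day change of 0.20 ± 0.07 did not pass (adjusted p = 0.122), and its difference from the other times was 0.32 ± 0.07 (adjusted p = 0.0407), lost in 15 of 28 alternatives.

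A stricter test compared the early day with each of the other 5 times singly. It took the largest of the 5 p-values, and genes without 1 sign in all 5 differences could not pass. No gene passed it after adjustment (smallest adjusted p = 1, 40 at an unadjusted p under 0.05, Nr1d1 among them with a least difference of -0.69). Against ct 38 and ct 62 alone, 12 h away, 2.41% of genes passed, and against the 3 times that are not neighbours 0.737% (126 genes).

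**Figure D2:**
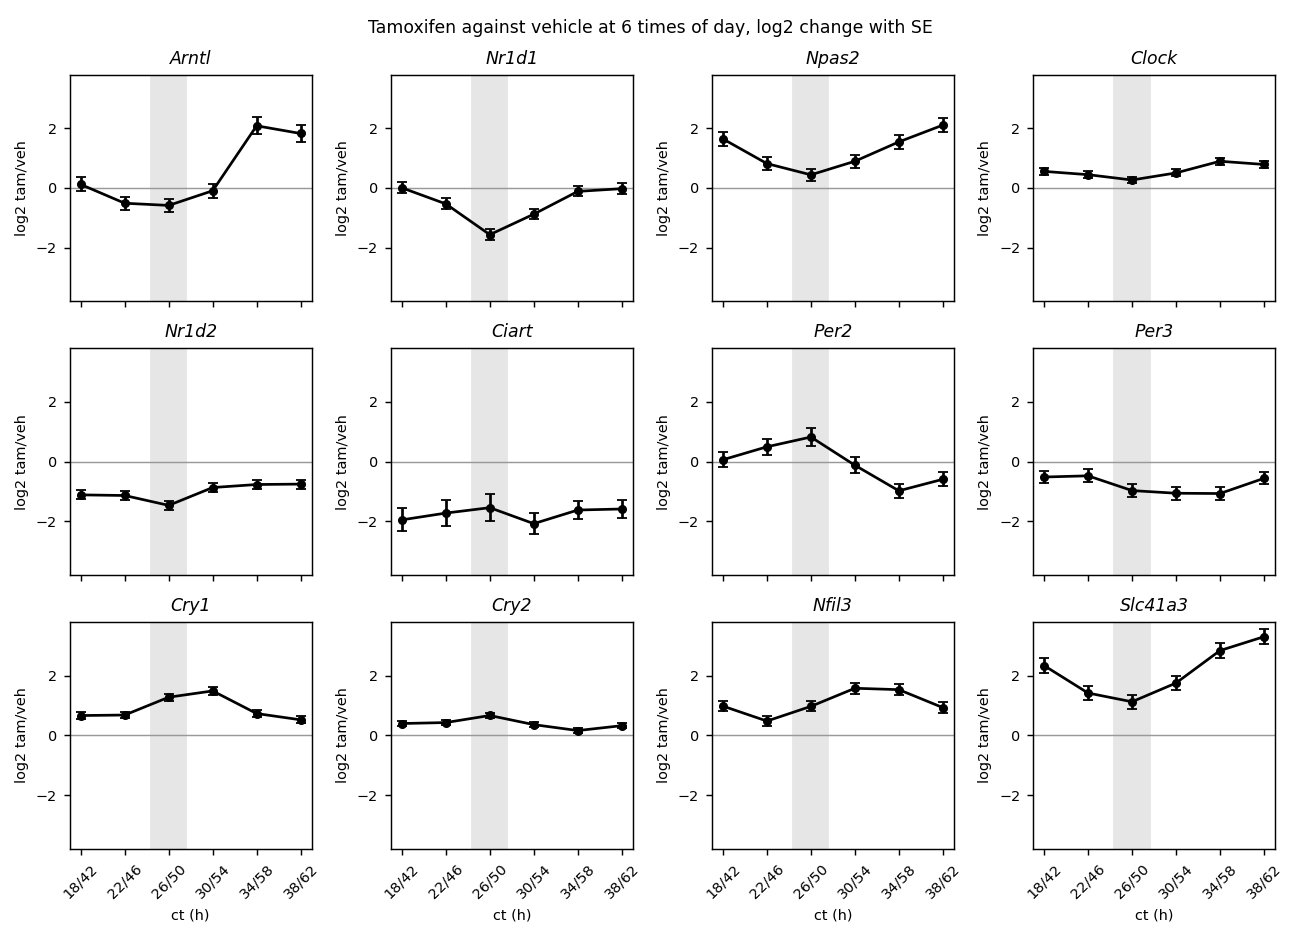
Log2 change, tamoxifen against vehicle, with SE at 6 times of day (ct in h, a time and its repeat 24 h later) for 12 genes; the grey band is ct 26/50. Nr1d1 is lowest in the band (-1.57), Arntl turns from -0.59 in the band to 2.08 at ct 34/58, and Ciart stays between -2.08 and -1.54.

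A test of any variation in the change over the 6 times passed 100 genes (0.585%), of which 98 were tested in the early-day fit and 26 called there. The early day was the time of the largest change for 13 of the 98, against 46 at ct 38/62 and 20 at ct 34/58. Cry1 had its larger changes at ct 26/50 (1.28) and ct 30/54 (1.49) and its smallest at ct 38/62 (0.52), with an adjusted p of 0.000202 for variation. Vehicle hearts held 18.5 ± 4.08 and 10.5 ± 1.39 CPM of Cry1 at those times, against 44.5 ± 5.24 and 29.7 ± 5.93 CPM with tamoxifen. The change of Per2 was 0.83 at ct 26/50 but -0.98 and -0.59 at ct 34/58 and 38/62 (adjusted p for variation = 0.012), when vehicle levels were 65.4 ± 28.2 and 99.3 ± 26.2 CPM against 5.12 ± 2.35 at ct 26/50.

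Other genes had their smallest change in the early day. Npas2 changed by 0.44 at ct 26/50 and by 0.81 to 2.10 at the other times (adjusted p for variation = 0.00475), and Slc41a3, a magnesium transporter gene, by 1.13 against 1.42 to 3.31 (adjusted p = 5.97e-05). Their differences from the mean of the other times, -0.96 ± 0.23 and -1.21 ± 0.26, did not pass (adjusted p = 0.143 and 0.0577). Both passed without the 13 libraries over 20 CPM of Myl7, as described below.

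**Figure D3:**
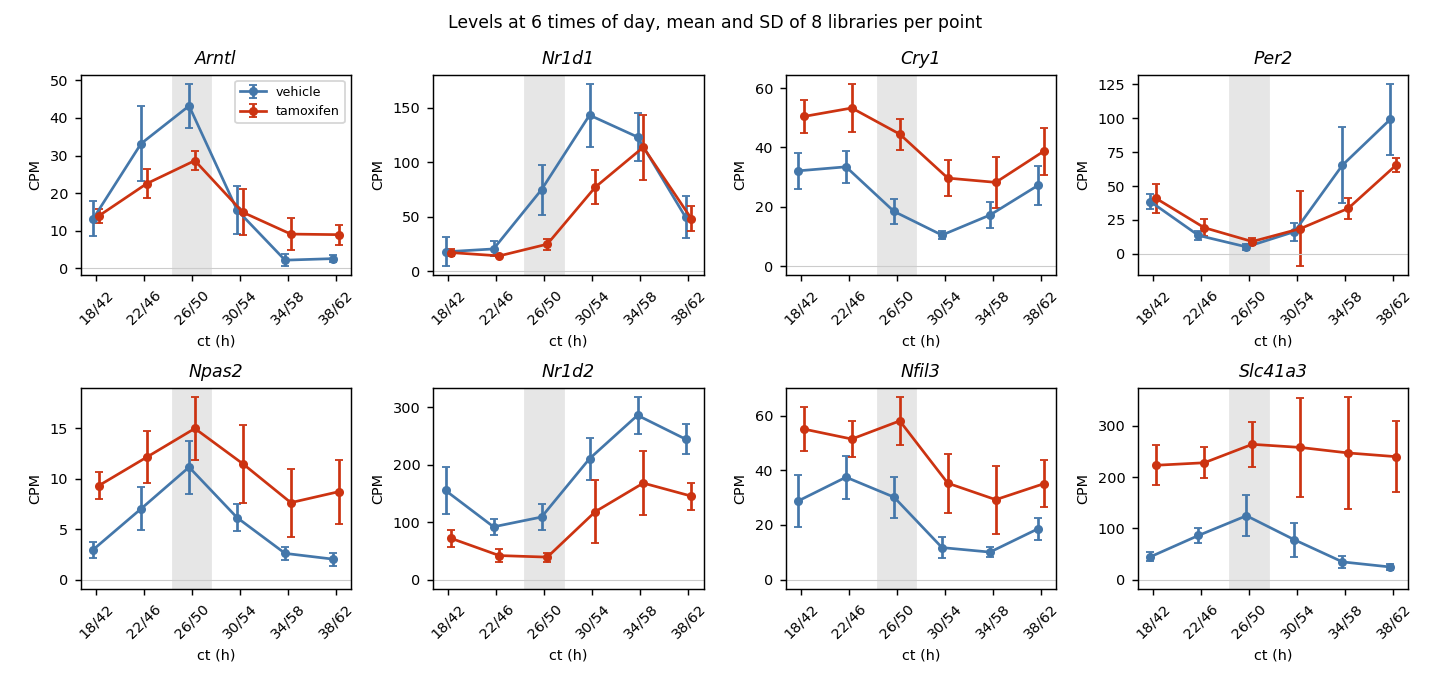
Level (CPM) of 8 genes at 6 times of day (ct in h), mean and SD of 8 libraries per point, vehicle in blue and tamoxifen in red, with ct 26/50 in grey. Nr1d1 with tamoxifen is at 24.7 CPM in the band against 74.7 with vehicle and meets it at ct 34/58; Arntl with vehicle is highest in the band (43.2 CPM).

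Most early-day changes were seen at the other times too. Of the 639 genes, between 88.7% (ct 38/62) and 98.9% (ct 30/54) had the same sign at each other time, against 69.8% to 78.5% of all genes tested. Between 53.8% (ct 22/46) and 70.1% (ct 18/42) of them also passed there. Of all genes in the fit of 96 libraries, 20.2% passed at ct 18/42, 7.22% at ct 22/46, 13.2% at ct 26/50, 11% at ct 30/54, 25.1% at ct 34/58 and 33.2% at ct 38/62. The early-day change passed with the same sign at all 5 other times for 227 (35.5%) and at none for 100, of which 1 was called against the other times. At an unadjusted p under 0.05 in that comparison there were 79 of the 100 and 27 of the 227. These groups were themselves set by the changes at the other times. At ct 38/62, 16 of the 639 passed in the opposite direction.

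**Figure D4:**
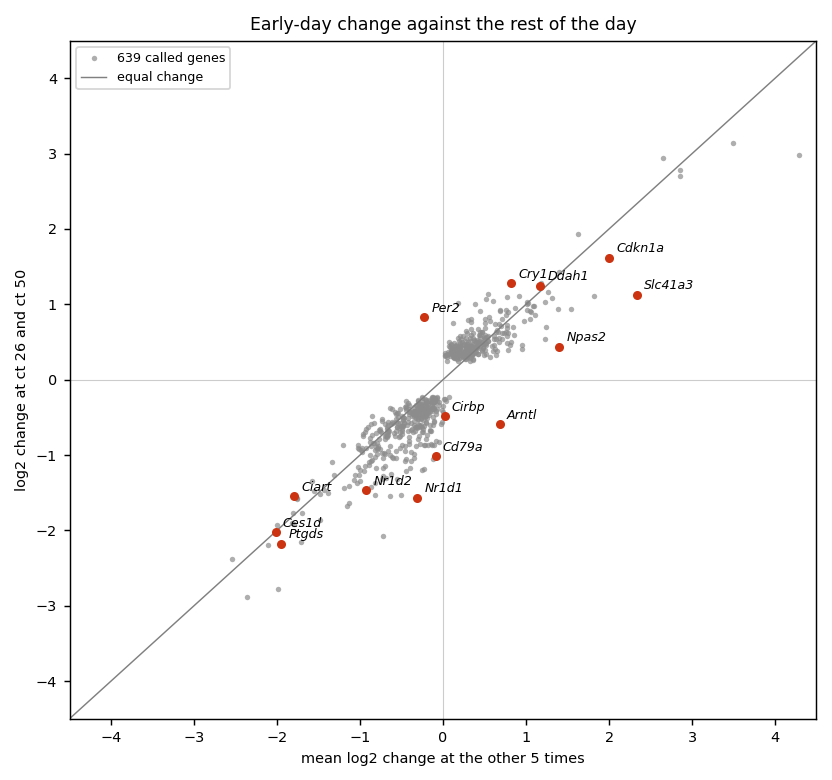
Each point is 1 of the 639 genes called in the early day: log2 change at ct 26 and ct 50 (vertical) against the mean log2 change at the other 5 times (horizontal), both from the fit of 96 libraries; the line marks equal change. Ptgds, Ces1d and Ddah1 lie close to the line, Nr1d1 (-1.57 against -0.31) and Arntl (-0.59 against 0.68) below it.

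Among called genes with a mean of at least 5 CPM and 1 sign in all 4 pairings of sex and ct, those that fell most included metabolic and membrane genes. Some genes under 5 CPM had larger changes and are not described. Ptgds, prostaglandin D synthase, stood at 31.4, 59.1 and 88.0 CPM against 125, 306 and 388 CPM, a 4.60-fold difference with no overlap. Ces1d, a carboxylesterase of lipid breakdown, stood at 20.6 to 98.7 CPM against 100.2 to 229 CPM, and the vehicle library nearest to the tamoxifen range was Veh_M_ct26_8. The chloride channel Clcn1 (-1.54 ± 0.23), the non-coding antisense gene Gm19522 (-1.49 ± 0.25) and the anoctamin Ano4 (-1.48 ± 0.19) were also among the 8 lowest, as were Nr1d1 and Nr1d2. For the 5 other than Nr1d1 and Nr1d2, the mean change at the other times ran from -2.02 (Ces1d) to -1.39 (Clcn1).

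Of the genes that rose under the same limits, Cdkn1a, the cell-cycle inhibitor p21, had the largest change, 1.59 ± 0.25. It ran from 54.7 to 149 CPM with tamoxifen and from 19.4 to 75.3 with vehicle, so the ranges overlapped. Slc17a7, a vesicular glutamate transporter, rose by 1.40 ± 0.23, Ddit4, an inhibitor of mTORC1, by 1.26 ± 0.15, and Ddah1, which degrades a nitric oxide synthase inhibitor, by 1.22 ± 0.12. In these 3 the groups did not overlap: Ddit4 stood at 99.8, 135 and 171 CPM with tamoxifen and 35.7, 51.6 and 89.0 CPM with vehicle. Their mean changes at the other times were 1.39, 1.18 and 1.17.

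Cardiac channels included the pacemaker channel gene Hcn2, which rose by 1.13 ± 0.19 (33.7 to 70.3 CPM against 9.54 to 34.3 CPM). Of 33 listed channel genes, a list chosen with earlier results known, 2 rose and 3 fell (15.2%, against 4.14% of all tested genes). Kcnv2, a silent potassium channel subunit, fell by 0.77 (SE 0.09; 14.1 to 20.1 CPM against 23.2 to 34.5 CPM, no overlap). Kcnip2, the auxiliary subunit of the transient outward current, had -0.60 ± 0.11. The rise of Kcnd2 (0.63 ± 0.18, adjusted p = 0.0496), the pore subunit of that outward current, was lost in 20 of 29 alternatives. Of 16 calcium handling genes 1 passed (6.25%, near the share of all tested genes): Strit1, the gene of the SERCA activator DWORF, fell, at 2.96, 5.96 and 9.83 CPM against 6.26, 11.5 and 23.1 CPM (a change of -1.12 ± 0.15). Of 20 sarcomere genes 2 passed (10%): Tcap, the titin cap, fell by 0.51 (SE 0.09), and Myh7, the slow myosin heavy chain, by 1.33 (SE 0.36), a call lost in 15 of 29 alternatives. Library Tam_M_ct26_578 held 429.4 CPM of Myh7 against 59.1 to 138 in the other 7 tamoxifen libraries.

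Of 30 genes of fat and ketone use, 1 rose and 2 fell (10%, against 4.14% of all tested genes). Bdh1, which oxidizes ketone bodies, fell by 1.12 (SE 0.26), as did Ces1d. None of 28 glucose and insulin genes, 25 matrix genes, 16 interferon genes, 15 autophagy genes or 14 adrenergic genes passed. Nampt, the rate-limiting enzyme of NAD salvage, fell by 0.72 (SE 0.16; 153 to 250 CPM against 143 to 410 CPM), the 1 of 14 NAD genes to pass (7.14%). Its lowest vehicle level was that of Veh_M_ct26_8, and the next lowest vehicle library held 293.5 CPM.

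Of 15 listed heat shock and cold-inducible genes 4 rose, 1 fell and 10 did not pass (33.3% called, against 4.14% of all tested genes). The list's median change was 0.25 against -0.02 over all tested genes. It was chosen with earlier results of these data known, so its share is a description and not a test. The chaperone Hsph1 rose by 0.73 ± 0.12 without overlap (131 to 194 CPM against 55.8 to 120 CPM), Dnajb1 by 0.55 ± 0.15, Hsp90aa1 by 0.46 ± 0.10 and Dnaja1 by 0.43 ± 0.09. The call of Dnajb1 was lost in 13 of 29 alternatives. Cirbp, the cold-inducible RNA-binding protein, was at 41.1, 50.1 and 66.1 CPM against 57.6, 69.4 and 87.8 CPM, a change of -0.51 ± 0.10 (adjusted p = 0.00683). Over the day its change was -0.49 at ct 26/50 and 0.32 at ct 38/62, and both passed (adjusted p for variation = 0.0455). Hsp90aa1 and Dnaja1 turned the other way, from 0.48 and 0.45 to -0.36 and -0.49. Without Veh_M_ct26_8, the same 5 genes passed and the list's median was 0.18.

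Among 12 glucocorticoid targets, a list likewise chosen with earlier results known, 3 rose and 2 fell (41.7%, against 4.14% of all tested genes). Cdkn1a, Ddit4 and Tsc22d3, a steroid-induced zipper protein (0.47 ± 0.12), rose. The metallothioneins Mt2 and Mt1, metal-binding proteins, fell, by 1.36 (SE 0.27) and 0.55 (SE 0.11), although 73.5% of the exonic bases of Mt2 are shared with a gene on the other strand. The immediate early gene Jun rose by 0.38 ± 0.10, a call lost in 17 of 29 alternatives, and the stress-response factor Atf5 by 0.44 ± 0.11, lost in 11. Of 12 cell-cycle genes 2 passed (16.7%): the proliferation marker Mki67 (-0.83 ± 0.18) and the cyclin Ccnd1 (-0.37 ± 0.09) fell, the latter lost in 12 of 29. Of the 13 lists of cell-type markers, the smooth muscle actin Acta2 (-0.68 ± 0.14) and the B-cell gene Cd79a (-1.04 ± 0.25, from a highest level of 1.99 CPM) were the members that passed, while mural and lymphocyte sums ran from 1066 to 1360 against 1136 to 1521 CPM and from 12.2 to 30.6 against 18.3 to 25.04 CPM.

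None of 26 nuclear respiratory chain genes passed in the early day. Of their values 25 were positive (24 when scaled by library size alone), with a median of 0.20 against -0.02 over all tested genes. Marker lists also leaned to 1 side: values were positive for 7 of 7 cardiomyocyte markers (median 0.11) and for 0 of 10 endothelial (-0.25), 0 of 8 mural (-0.15) and 0 of 5 RNA quality genes (-0.19). Without Veh_M_ct26_8 the positive values numbered 7 (median 0.09), 3 (-0.09), 0 (-0.19) and 0 (-0.07) in these lists. Scaled by library size alone, 5 cardiomyocyte markers were positive (median 0.05) and 0 genes in each of the other lists just named. The part of these marker lists in the respiratory chain values was not tested. At the other times the list's median ran from -0.06 (ct 34/58) to 0.07 (ct 30/54). Their summed level was 24161 to 29103 CPM with tamoxifen and 16295 to 28430 CPM with vehicle, so the groups overlapped. Without Veh_M_ct26_8 the median was 0.16, 26 of 26 were positive and 1 (Uqcrc2, a complex III core subunit) passed, where 7.81% of all tested genes passed.

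The difference from the rest of the day was sensitive to which libraries were kept. Without the 13 libraries over 20 CPM of Myl7, an alternative chosen after seeing the data, 1059 of 17677 genes passed (5.99%), 532 with a higher and 527 with a lower change in the early day. Without only the 4 vehicle libraries at ct 18, all among the 13, 352 passed (1.98%). These 4 held 28.8 to 52.1 CPM of Myl7 and were all the vehicle libraries at ct 18. Atrial RNA and the loss of those vehicle libraries cannot be told apart here. In the first case 10 of the 26 respiratory chain genes passed, all higher in the early day (38.5%), and in the second 8 (30.8%). Both cases kept Veh_M_ct26_8. With only that library left out, 0 of the 26 passed, and their median difference from the other times was 0.16 (0.24 with all libraries). In the first case 3 of 4 atrial markers (Myl4, Myl7 and Sln) also passed, all lower. Libraries were left out by their Myl7 level, so these calls are not independent of that choice. Of 20 sarcomere genes 20% passed in that case, 3 higher and 1 lower in the early day, while none of 33 channel genes passed. Among the respiratory chain genes passing in both cases were Cox4i1, Cox5b and Ndufb5, subunits of complexes IV and I. Early-day changes of these 3 with all libraries were 0.08 ± 0.10, 0.15 ± 0.09 and 0.26 ± 0.10, and their differences from the other times 0.29 ± 0.11, 0.31 ± 0.09 and 0.30 ± 0.09, none past the threshold. Also passing in both cases were Nr1d1, Arntl and Atf4, and with them Npas2, Nr1d2, Cry1, Slc41a3, Cirbp and the clock output Usp2. The macrophage markers C1qa, C1qb and C1qc passed in both as well, and the part of cell composition in these differences was not tested.

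**Figure D5:**
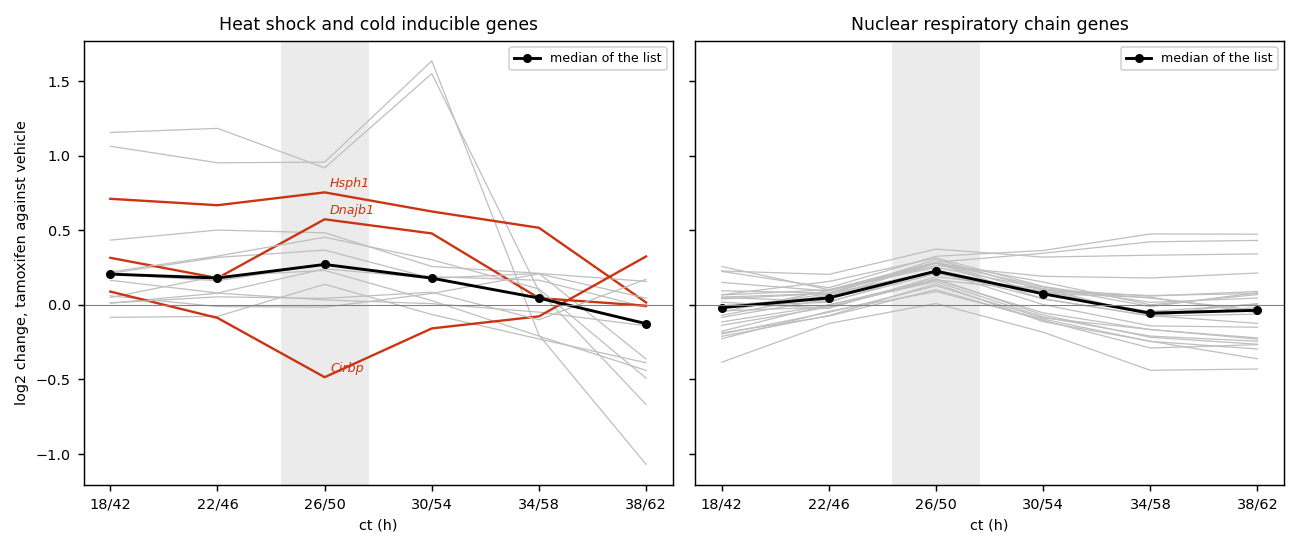
Log2 change, tamoxifen against vehicle, at 6 times of day (ct in h) for 15 heat shock and cold-inducible genes (left) and 26 nuclear respiratory chain genes (right); each thin line is a gene, red lines are the 3 named, and black is the median of the list. The respiratory chain median is 0.23 at ct 26/50 and between -0.06 and 0.07 at the other times, and Cirbp is lowest at ct 26/50.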

How the data were processed

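Poly-A RNA of mouse ventricle was sequenced, and the authors deposited raw counts of reads for each gene, not normalized. HISAT2, Picard and HTSeq and the builds GRCm38 and mm10 are named per the submitters' processing notes, with versions, roles and strand setting not given in the sources used here. All 96 columns matched a library title. The 26 rows whose symbols had become dates stayed in the fits and are not named.

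Tests used edgeR 4.0.16 in R 4.3.3 (glmQLFit, glmQLFTest, TMM, filterByExpr with a minimum count of 10). The early-day fit took 16 libraries with the sex letter as an additive block (13 residual degrees of freedom). The comparison with other times took 96 libraries as 24 cells of treatment, sex and time of day, 4 libraries each (72 residual degrees of freedom). P-values were adjusted by Benjamini-Hochberg over all tested genes. DESeq2 1.42.0 was an alternative. The scripts were tested on simulated data.

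Named genes were all tested clock genes, the 8 highest and 8 lowest called changes with at least 5 CPM and 1 sign in all 4 pairings, those called against other times under the same limits, and up to 3 called members of each other list. Other genes named in the text are members of those lists or are said to be chosen after their values were seen. Members and lists were chosen with earlier results of these data known. No pair of replicates agreed within sampling noise (lowest chi-square per gene 4.56), so none was counted as a duplicate. Floors cover counting error only. Coordinates and exon overlaps come from GENCODE M21, and Strit1 was not matched there by symbol. Promoters come from RefSeq. Results for some called genes are not reported here.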

Additional observations from a re-analysis of the deposited data

Results flagged for a closer look

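Of 188 groups of 4 libraries checked over 47 named genes, 15 held a library far from the other 3, and chance flags about 1 group in 20. Among tamoxifen M libraries these were Rora in Tam_M_ct26_578 (56.0 CPM against 36.9 to 40.1), Myh7 in Tam_M_ct26_578 (429.4 against 89.7 to 101), Per3 in Tam_M_ct26_514 (7.06 against 9.75 to 10.1), Gm19522 in Tam_M_ct26_514 (2.33 against 3.96 to 4.30), Dnajb1 in Tam_M_ct50_549 (46.8 against 19.7 to 24.1) and Bhlhe40 in Tam_M_ct50_550 (41.3 against 27.9 to 30.1). In tamoxifen F, Tam_F_ct50_591 was low in Rorb (2.46 CPM against 3.61 to 3.72) and Acta2 (25.5 against 48.8 to 53.4). In vehicle F, Npas2 was low in Veh_F_ct26_414 (12.0 CPM against 13.9 to 14.1) and Tcap in Veh_F_ct50_445 (434.6 against 543.1 or more). In vehicle M, Veh_M_ct26_7 was high in Arntl (44.4 CPM against 38.5 to 39.0) and low in Tcap (457.3 against 589.4 to 605.2), Veh_M_ct26_8 low in Ces1d (100.2 against 217 to 229) and high in Kcnv2 (28.3 against 23.2 to 23.7), and Veh_M_ct50_26 high in Mt2 (16.02 against 4.93 to 6.44). These 15 values fall on 10 libraries, with at most 2 on any of them.

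Changes that differed between the early day and the other times were those of Nr1d1 (-1.26), Arntl (-1.27) and Atf4 (0.32), by edgeR over all genes. Among the 47 genes checked above the change varied over the 6 times of day for 9, with adjusted p-values of 1.57e-08 for Arntl, 6.18e-05 for Nr1d1, 5.97e-05 for Slc41a3, 0.000202 for Cry1, 0.00475 for Npas2, 0.0119 for Bhlhe41, 0.012 for Per2, 0.0349 for Nfil3 and 0.0455 for Cirbp. Outside those 47, Atf4 (0.000514), Dnaja1 (0.00171), Hsp90aa1 (0.00199), Usp2 (0.0263) and Thra (0.0271) also passed this edgeR test of variation. Bhlhe41, a repressor of E-box genes, did not pass in the early day itself. Its change was 0.21 at ct 26/50, -0.35 at ct 30/54 and -0.28 at ct 34/58.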

How the results depend on the processing

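The share of tested genes called in the early day, 4.14% (639 genes), became 7.19% by DESeq2, 2.67% without the sex block, 2.51% without the 2 libraries over 20 CPM of Myl7, 0.0129% at ct 26 alone, 0.524% at ct 50 alone, 14% in F alone, 0.0612% in M alone and 13.2% in the fit of all 96 libraries. Leaving out 1 library gave 2.22% to 7.81%. It was 2.65% without Tam_F_ct26_517, 2.33% without Tam_F_ct26_518, 2.22% without Tam_M_ct26_514, 2.56% without Veh_F_ct26_414, 2.27% without Veh_F_ct50_444, 7.81% (1212 genes) without Veh_M_ct26_8 and 6.87% (1077 genes) without Veh_M_ct50_26.

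The 0.0175% (3 genes) called against the other times became 0.0877% (15 genes) by DESeq2, 2.41% against ct 38 and ct 62 alone, 0.737% against the 3 times that are not neighbours, 0.00585% (1 gene) in F alone, 0% in M alone, 5.99% (1059 genes) without the 13 libraries high in Myl7 and 1.98% (352 genes) without the 4 vehicle libraries at ct 18. Leaving out 1 library gave 0.00574% (1 gene, without Tam_F_ct26_518, Tam_M_ct26_514 or Veh_M_ct26_7) to 0.0405% (7 genes, without Veh_M_ct26_8), and 6 genes passed without Tam_M_ct50_550. It was 3 genes without the 10 vehicle male libraries rich in counts of unverified (TEC) genes, and 2 without Tam_F_ct54_559, whose sex-linked genes went against its label. The 0.585% whose change varied over the day became 0.437% to 1.09% with 1 library left out, the highest without Veh_M_ct26_8. No gene passed the stricter test against each other time in any of 19 fits, the reported one included. F against M gave 0.00649% (1 gene) by DESeq2. Of the named genes that passed and were followed through these settings none changed direction, and Dnaja1, Hsp90aa1, Kcnip2, Tsc22d3, Mt1 and Thra were not followed. The cause was not tested.

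No paired analysis was possible because tamoxifen and vehicle groups share no replicate numbers. Settings that leave out libraries by Myl7, TEC genes or label were chosen after seeing the data.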

Other observations

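Platelet genes had large differences between the early day and the rest of the day without passing. Ppbp, a platelet chemokine, differed by 3.25 ± 0.74 (adjusted p = 0.106), Tubb1, the platelet tubulin, by 3.15 ± 0.76 and Itga2b, the platelet integrin, by 2.43 ± 0.61 (adjusted p = 0.143 for both). They were picked after their values were seen. Tam_M_ct50_549 and Tam_F_ct26_517 held 69.5 and 31.6 CPM of Ppbp, against 1.01 to 4.22 CPM in the other 6 tamoxifen libraries and 1.21 to 14.2 CPM in vehicle libraries. The same 2 libraries were the highest for Tubb1 and Itga2b.

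Some early-day changes turned sign later. Per2 and the chaperone genes Hsp90aa1 and Dnaja1 were above vehicle in the early day and below it at ct 38/62, where Per2 stood at -0.59, while Arntl and Cirbp went from below to above. Thra, by contrast, stayed above vehicle at all 6 times, from 0.29 at ct 26/50 to 0.76 at ct 38/62, with its smallest change in the early day.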
